A study of Homo sapiens with 6 samples.

Results

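The messages examined here encode 9 proteins of the tight junction, the seal that epithelial cells form around their apices. They are the claudins CLDN1, CLDN3, CLDN4, CLDN7, CLDN12 and CLDN18, the membrane protein occludin (OCLN), the adhesion molecule JAM-A (F11R) and the scaffold ZO-1 (TJP1). A gene was measured by the probe sets that name it alone, 103 of 224320 such probe sets for these 9 of 18656 genes, and its value on an array is the mean log2 value of those probe sets. The cells were AGS, an established human gastric adenocarcinoma line. Inhibitor cells (3 arrays) were transfected with an anti-miR oligonucleotide against miR-25-3p, and control cells (3 arrays) with a non-targeting RNA. Both groups received the lipid reagent, were transfected again after 24 h and were harvested 48 h after the first transfection. Replicates carry the word biological in their labels without saying whether cultures were separate, so a p-value covers only the spread seen among these samples, which may be technical. The comparison asked whether the messages of the junction differ in cells given the inhibitor.

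In a tight junction, claudins of neighbouring cells pair across the gap and polymerise into strands. Different claudins make the seal tighter or leave pores for ions. Occludin and JAM-A lie in the same membrane, and ZO-1 ties their tails to actin. In the stomach the junction holds back acid, and claudin-18 is the claudin typical of gastric epithelium. A stomach form of claudin-18, made from its own first exon, is the target of the therapeutic antibody zolbetuximab.

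MicroRNAs find their messages mainly through the seed, bases 2 to 8 of the mature strand. The inhibited microRNA is shown with all mature human microRNAs that RefSeq (GRCh38.p14) lists with the same seed, since these could recognise the same sites. Mature miR-25-3p lies at chr7:100093571-100093592 on the minus strand. The seed is in capitals and is identical in the 6 sequences.
hsa-miR-25-3p: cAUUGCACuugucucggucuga
hsa-miR-32-5p: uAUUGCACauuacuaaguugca
hsa-miR-363-3p: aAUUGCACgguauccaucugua
hsa-miR-367-3p: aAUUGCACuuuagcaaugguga
hsa-miR-92a-3p: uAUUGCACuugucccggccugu
hsa-miR-92b-3p: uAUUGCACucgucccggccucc

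AGS cells carried the epithelial programme on these arrays. EPCAM, which binds claudin-7 at the cell surface, averaged 10.46 on the log2 scale over the 6 arrays, and KRT18, a keratin of simple epithelia, averaged 10.53. The 348 olfactory receptor genes, which epithelial cells hardly use, served as a picture of dim signal, and 95% of them lay below 4.29. All 8 epithelial markers measured exceeded this level, against 6 of 10 markers of gastric surface and gland cells. The gastric markers above it were TFF1 (6.89), SOX2 (6.02), MUC6 (5.01), PGC (4.63), TFF2 (4.48) and ATP4A (4.44). Those below it were GIF (3.51), VSIG1 (3.29), GKN1 (2.56) and GKN2 (2.32). Of the endothelial markers 1 of 5 exceeded it, of the fibroblast markers 4 of 7 and of the leukocyte markers 3 of 5, while PTPRC (2.58), DCN (2.64) and PECAM1 (3.38) were dim. The bright ones were LYZ (8.82), ITGAM (4.69) and CD14 (4.48) of the leukocyte list and PDGFRA (6.41), COL1A1 (6.38), COL3A1 (5.02) and COL1A2 (4.85) of the fibroblast list. The dimmest epithelial markers, CDH1 (6.11) and KRT7 (5.89), lay below LYZ, PDGFRA and COL1A1, though levels of different genes are not comparable. The endothelial marker above the level was the claudin CLDN5 itself. The mean of the fibroblast markers lay between 4.56 and 4.60 on inhibitor arrays and between 4.47 and 4.63 on control arrays. The mean of the leukocyte markers did not overlap between the groups. It lay at 4.85 to 4.96 on inhibitor arrays and 4.69 to 4.82 on control arrays. Of the 5 leukocyte markers CD14 had the widest difference and was the only gene without overlap, beside 12.9% of all genes. The part of these markers in the results was not tested.

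Of the 9 tight junction genes, 8 exceeded the olfactory receptor level and CLDN18 did not. Brightness depends on each probe, so the levels do not rank the genes by abundance. F11R averaged 10.07, TJP1 9.82, OCLN 9.80, CLDN7 9.70, CLDN4 8.55, CLDN1 7.73, CLDN12 7.34, CLDN3 6.35 and CLDN18 4.09. CLDN3 was read by 3 probe sets of very different brightness, from 3.94 to 9.43, and its mean therefore understates its brightest signal. The 11 probe sets of CLDN18 averaged between 1.24 and 6.63, and 6 of them exceeded the olfactory receptor level. The annotation given does not say which of them read the first exon of the stomach form.

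The other 15 claudins on the array were mostly dim, and 7 exceeded the olfactory receptor level. CLDN2, a pore-forming claudin of leaky epithelia, was at 7.29 and CLDN23 at 6.56. Below these were CLDN19 (5.62), CLDN11 (5.60), CLDN5 (5.52), CLDN15 (5.01) and CLDN9 (4.79). CLDN5 is best known from endothelium, CLDN11 from myelin and CLDN19 from the kidney. The remaining 8 lay between 2.18 and 3.77. The plot of all claudins sets these values beside each other for both groups.

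**Figure D1:**
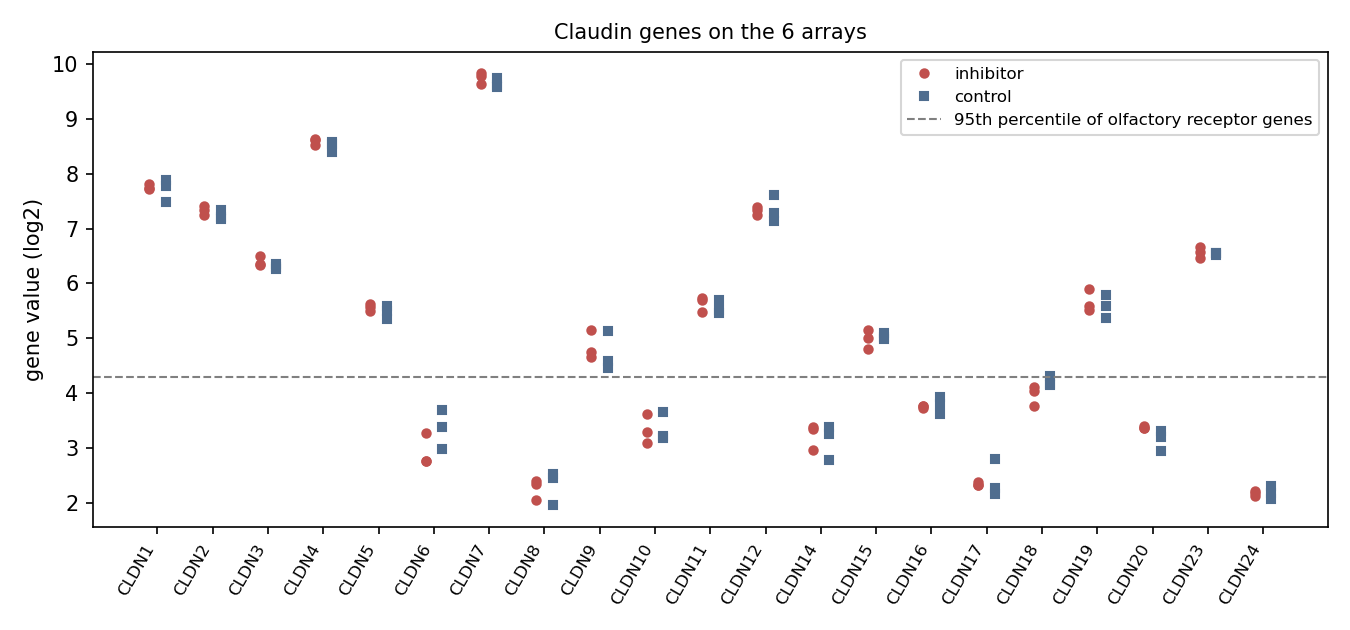
Gene values (log2) of the 21 claudins on each inhibitor array (circles) and each control array (squares). The dashed line is the 95th percentile of olfactory receptor genes, 4.29. CLDN7 and CLDN4 are the brightest claudins, CLDN18 averages below the line, and the groups overlap for 19 of the 21 claudins, the exceptions being CLDN18 and CLDN20, beside 12.9% of all genes without overlap.

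No tight junction gene passed the test of a difference between the groups. With limma and Benjamini-Hochberg adjustment over all 18656 genes, 0 of the 9 passed an adjusted p of 0.05, where 0% of all genes passed. At an unadjusted p under 0.05 the count was also 0 of 9, against 6.12% of all genes, with 2.95% higher and 3.16% lower on inhibitor arrays. The differences, inhibitor minus control, ran from -0.23 to 0.14 with a median of 0.081, against a median of 0.0021 over all genes. Of the 9 differences 6 were positive, beside 50.5% of all genes. Without control replicate 1, the array least like the rest, 5 were positive and the median was 0.018. Without inhibitor replicate 1, 6 were positive and the median was 0.11. Arrays of the groups did not overlap for 2 of the 9 genes, CLDN18 and F11R, both lower on inhibitor arrays, beside 7.68% of all genes separated in this direction. An exact two-sided permutation test of 3 against 3 arrays cannot go below p = 0.1 even for such a separation.

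**Figure D2:**
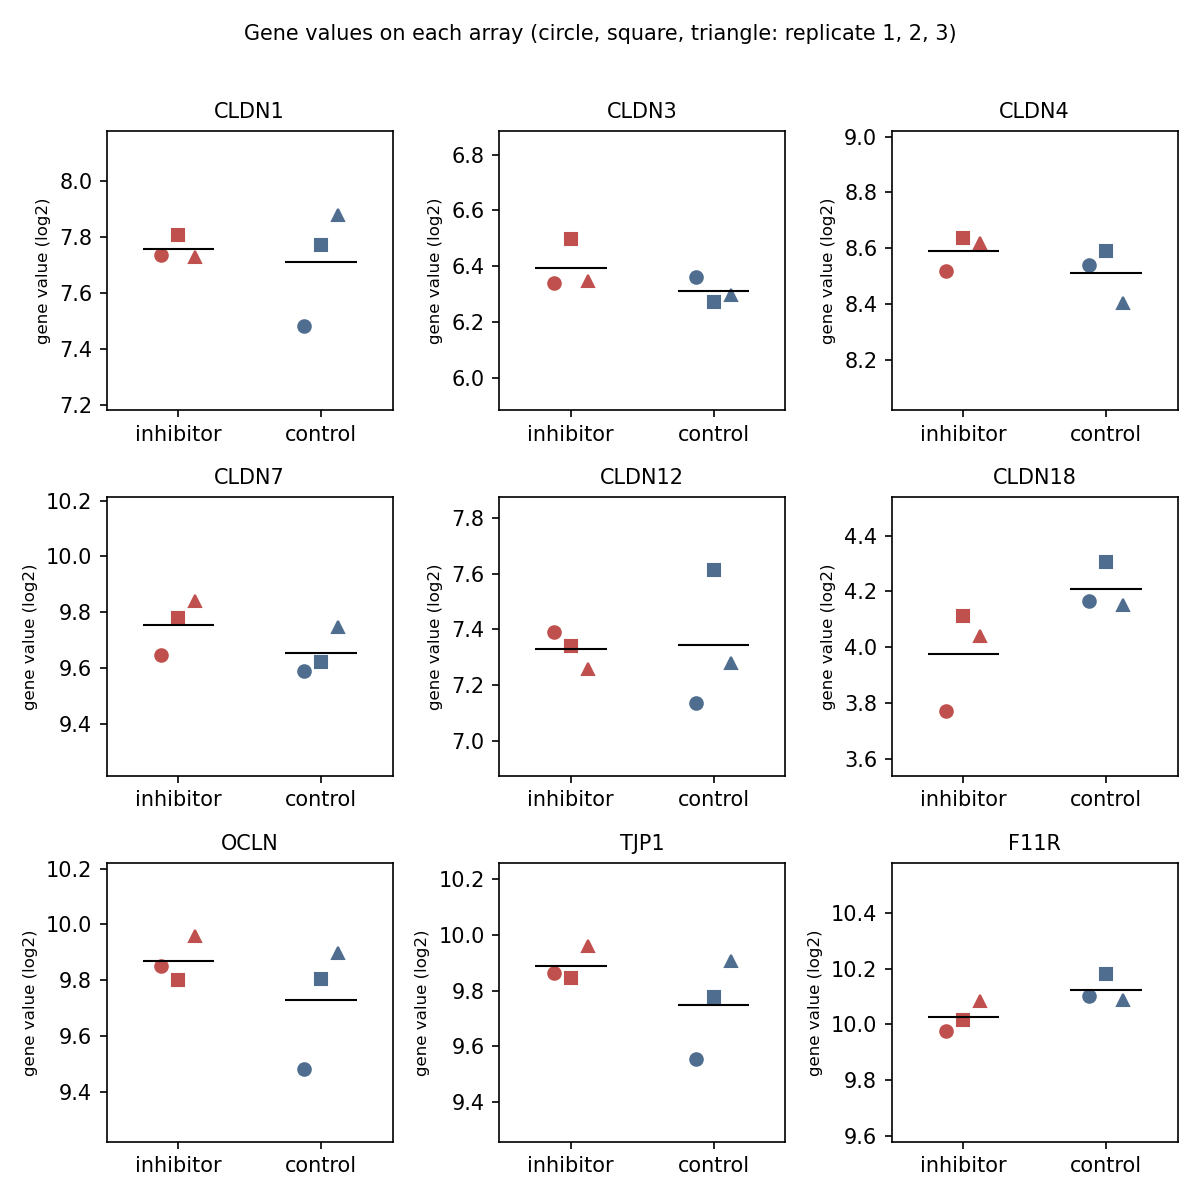
Gene values (log2) of the 9 tight junction genes on each array, with inhibitor arrays at the left and control arrays at the right of each panel. Symbols mark the replicate, bars the group mean, and each vertical axis spans 1 log2 unit. CLDN18 and F11R are the genes whose groups do not overlap. Control replicate 1 is the lowest array for CLDN1, CLDN7, CLDN12, OCLN and TJP1.

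Among the claudins, CLDN7, the binding partner of EPCAM, was bright on all arrays. It had values of 9.64, 9.78 and 9.84 on inhibitor arrays 1 to 3, against 9.59, 9.62 and 9.75 on control arrays 1 to 3. The groups overlapped, with a difference of 0.10 (SE 0.095, adjusted p = 0.85 in limma). Without control replicate 1, the lowest array for CLDN7, the difference was 0.070, and without inhibitor replicate 1 it was 0.16. CLDN4, a sealing claudin that serves as the receptor of a Clostridium perfringens toxin, had 8.52, 8.64 and 8.62 on inhibitor arrays and 8.54, 8.59 and 8.40 on control arrays. Its groups overlapped too, and the difference was 0.081 (SE 0.092, adjusted p = 0.88). CLDN3, another receptor of that toxin, had 6.34, 6.50 and 6.35 on inhibitor arrays and 6.36, 6.27 and 6.30 on control arrays. Control replicate 1 lay among the inhibitor values, and the difference was 0.083 (SE 0.089, adjusted p = 0.87). On the brightest of its probe sets alone CLDN3 had -0.033.

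CLDN1, without which the epidermal barrier of mice fails, had 7.74, 7.81 and 7.73 on inhibitor arrays. On control arrays it had 7.48, 7.77 and 7.88, so the controls spanned the whole inhibitor range. The difference was 0.047 (SE 0.12, adjusted p = 0.95), and without control replicate 1, the lowest array, it was -0.068. CLDN12, a claudin whose tail lacks the usual motif for binding ZO proteins, had 7.39, 7.34 and 7.26 on inhibitor arrays and 7.14, 7.61 and 7.28 on control arrays. The control arrays again spanned the inhibitor arrays, with a difference of -0.014 (SE 0.13, adjusted p = 0.99). It became 0.12 without control replicate 2 and -0.12 without control replicate 1, the lowest array for CLDN12.

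CLDN18, the gastric claudin, was the dimmest of the genes and had the largest difference among them. It had 3.77, 4.11 and 4.04 on inhibitor arrays, against 4.17, 4.30 and 4.15 on control arrays. Every inhibitor value was lower than every control value, by a margin smaller than the spread within the inhibitor group. The difference was -0.23 (SE 0.11, unadjusted p = 0.066, adjusted p = 0.79 in limma), and its 95% interval ran from -0.49 to 0.019. Without inhibitor replicate 1 it was -0.13, and without inhibitor replicate 2 it was -0.30. The brightest CLDN18 probe set averaged 6.63 in both groups. The most negative one was at 1.57, 1.87 and 1.57 on inhibitor arrays and at 2.30, 3.31 and 2.67 on control arrays, all below the olfactory receptor level, with a difference of -1.09 (adjusted p = 0.78 over all probe sets). With the dimmest 30% of all probe sets left out, the difference of CLDN18 was -0.061. Of its 11 probe sets 7 had a negative difference, 3 a positive one and 1 none.

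Occludin and ZO-1 varied together from array to array. OCLN had 9.85, 9.80 and 9.96 on inhibitor arrays and 9.48, 9.81 and 9.90 on control arrays. TJP1 had 9.86, 9.84 and 9.96 on inhibitor arrays, against 9.55, 9.78 and 9.91 on control arrays. For both genes control replicate 1 was clearly the lowest array and the other controls lay close to the inhibitor values. Both differences were 0.14 (SE 0.12 for OCLN and 0.11 for TJP1), with adjusted p = 0.84 and 0.83 in limma. Without control replicate 1 they were 0.018 for OCLN and 0.046 for TJP1, and without control replicate 3 they were 0.23 and 0.22. Over all genes control replicate 1 was also the least like the rest: its correlations averaged 0.9915, and those of each remaining array 0.9933 to 0.9938. Across the 6 arrays, which share this low control, Pearson's r between OCLN and TJP1 was 0.99, given as a description. OCLN has a partial copy nearby in the genome, so its probe sets may read more than 1 locus.

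F11R, whose product JAM-A is an immunoglobulin-type adhesion molecule that recruits polarity proteins, had 9.98, 10.02 and 10.085 on inhibitor arrays. On control arrays it had 10.10, 10.18 and 10.086. The groups were separated, but inhibitor replicate 3 and control replicate 3 were almost level. The difference was -0.097 (SE 0.085, adjusted p = 0.85), with a 95% interval from -0.29 to 0.097. Across the 17 alternative settings it stayed negative, between -0.13 and -0.0033, and it did not pass the threshold under any of them. A kept sign was not particular to F11R. CLDN4 (0.020 to 0.12), CLDN7 (0.013 to 0.16), OCLN (0.018 to 0.23) and TJP1 (0.046 to 0.22) stayed positive under all 17.

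**Figure D3:**
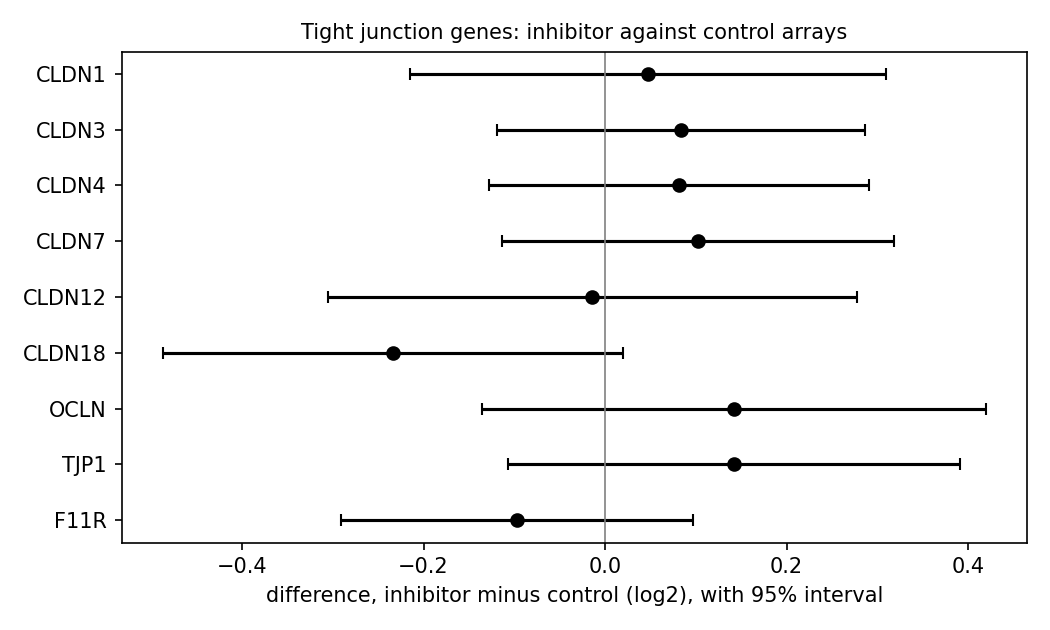
Difference of each tight junction gene, inhibitor minus control (log2), as a point with its 95% interval from limma's moderated standard error (n = 3 arrays each). All 9 intervals include 0, and the estimates run from -0.23 for CLDN18 to 0.14 for OCLN and TJP1.

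The intervals differed in width from gene to gene. The highest upper bound was 0.42 for OCLN and the lowest lower bound was -0.49 for CLDN18, on the log2 scale. The intervals of CLDN3 and CLDN4 were narrower, from -0.12 to 0.29 and from -0.13 to 0.29.

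Single probe sets were compared in the same way. Of the 103 probe sets 65 had a positive and 37 a negative difference, with 1 at 0, beside 49.7% positive among all 224320. None passed an adjusted p of 0.05 in limma, where 0% of all probe sets passed, and 2 had an unadjusted p under 0.05, beside 6.21% of all. Arrays did not overlap for 11 probe sets in the positive and 7 in the negative direction, beside 5.89% and 6.32% of all probe sets. The positive probe sets were concentrated in TJP1 with 27 of 32, CLDN7 with 10 of 11 and OCLN with 8 of 9, whereas F11R had 14 of 18 negative. Probe sets of 1 gene share the same 6 RNA samples, so these counts are not independent support. Without control replicate 1 the positive counts were 19 for TJP1, 7 for CLDN7 and 4 for OCLN, while F11R had 15 negative.

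**Figure D4:**
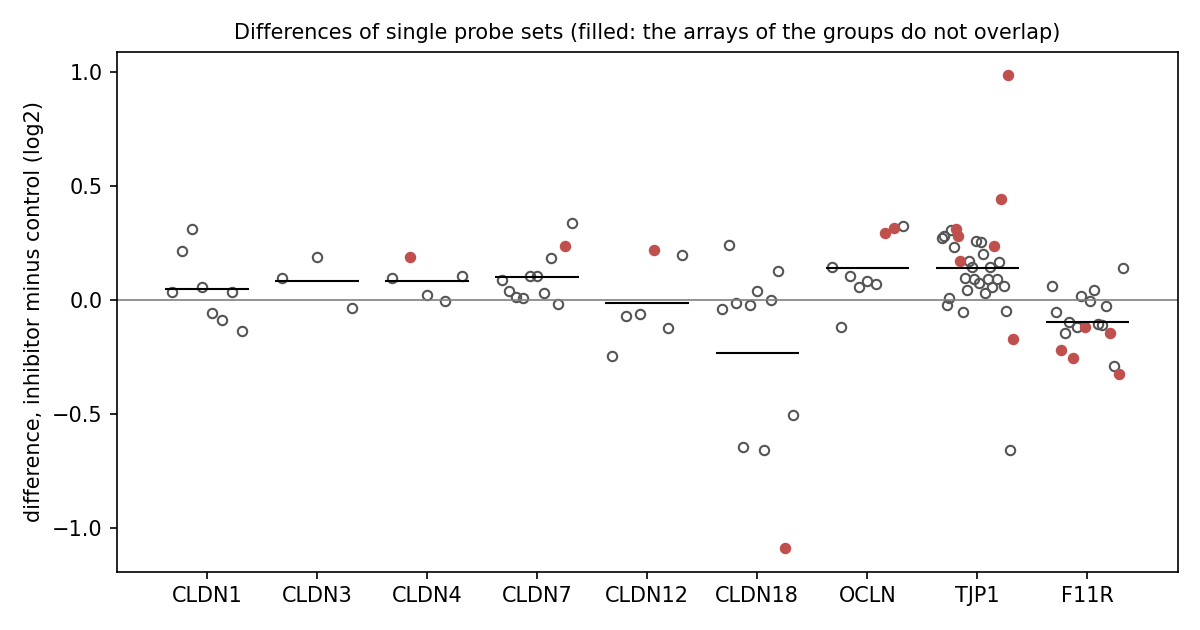
Difference of every probe set, inhibitor minus control (log2), for the 9 genes, in the order of the probe set identifiers. Filled points are probe sets whose inhibitor and control arrays do not overlap, and bars are the gene means. Nearly all TJP1 and OCLN points lie above 0 and most F11R points below, with the widest scatter in CLDN18 and at the end of TJP1.

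The widest differences in TJP1 came from its dimmest probe sets, though all 32 exceeded the olfactory receptor level. Its extreme probe sets differed by 0.99 and -0.66, and these averaged 5.54 and 4.88 while the median TJP1 probe set was at 10.47. A test of whether probe sets of 1 gene changed unequally (limma's diffSplice) gave no tight junction gene an adjusted p under 0.05, the lowest being 0.58 for TJP1, where 1.32% of 17611 genes passed. For single probe sets the same test gave these extreme TJP1 probe sets adjusted p = 0.017 and 0.029. It assumes equal noise for all probe sets of a gene, and on simulated arrays without that property most of its calls were false, so these p-values are not relied on. The plain limma fit, which gives each probe set its own variance, asks a different question, whether a probe set differed between the groups. In that fit the adjusted p of these extreme TJP1 probe sets was 0.80 and 0.83.

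Genes that build the rest of the junction were counted beside them. Of all genes 50.5% had a positive difference and 0% passed the threshold. Of 12 measured plaque and scaffold genes 2 had a positive and 10 a negative difference, with a median of -0.056 and 0 passing the threshold. CGNL1, or paracingulin, had 0.26 (SE 0.13) and the polarity scaffold PATJ 0.079 (SE 0.097), against -0.20 (SE 0.11) for TJP3, or ZO-3, and -0.13 (SE 0.097) for MAGI3. Of 12 other membrane proteins 4 were positive and 8 negative, with a median of -0.030 and 0 passing. ILDR2 and LSR, both angulins, which mark the corners where 3 cells meet, had -0.29 (SE 0.11) and -0.15 (SE 0.083). On the positive side POPDC1 had 0.14 (SE 0.095) and JAM3, another junctional adhesion molecule, 0.061 (SE 0.11). CGNL1, POPDC1 and JAM3 were dim, with averages of 3.48, 3.10 and 3.99, below the olfactory receptor level. None of these genes passed an adjusted p of 0.05 in limma. Only ILDR2 had an unadjusted p under 0.05 (0.025 in limma), beside 6.12% of all genes. Arrays did not overlap for ILDR2, LSR and 1 plaque and scaffold gene. All were lower on inhibitor arrays, beside 7.68% of all genes separated in this direction.

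Polarity and assembly genes were split, with 6 of 13 positive, 7 negative, a median of -0.0083 and 0 passing. Of all genes 50.5% were positive and 0% passed. The small GTPase CDC42 had 7.02, 7.03 and 6.86 on inhibitor arrays and 6.56, 6.79 and 6.81 on control arrays, a difference of 0.25 (SE 0.10, adjusted p = 0.79). The kinase PRKCZ, which works with the PAR polarity proteins, had 8.02, 7.90 and 7.92 on inhibitor arrays and 8.21, 8.16 and 8.15 on control arrays. Its difference was -0.23 (SE 0.085, adjusted p = 0.79). ROCK1, a kinase of actomyosin contraction, had 0.21 (SE 0.11) and the GTPase RAB13 -0.14 (SE 0.10). CDC42 and PRKCZ were the 2 of 13 with an unadjusted p under 0.05, beside 6.12% of all genes. Among the other claudins 8 of 15 were positive, with a median of 0.029 and 0 passing. Among the positive ones CLDN20 at 0.22 (SE 0.11) and CLDN2 at 0.095 (SE 0.091) had the smallest p, and among the negative ones CLDN6 at -0.42 (SE 0.20) and CLDN15 at -0.051 (SE 0.11). CLDN20 and CLDN6 were dim.

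Transcription factors reported to control junction genes were mostly on the negative side. Of 15 measured, 2 had a positive and 13 a negative difference, with a median of -0.14, and 0 passed the threshold. Of all genes 50.5% were positive and 0% passed. In limma 2 of the 15, both negative, had an unadjusted p under 0.05, beside 6.12% of all genes. This list was chosen with earlier results of these data known, so its counts are only a description. Arrays did not overlap for 7 in the negative direction, beside 7.68% of all genes, and for 1 in the positive direction, beside 5.2%. SNAI1, or Snail, which represses claudin and occludin genes in mouse epithelial cells, had 6.34, 6.24 and 6.34 on inhibitor arrays, against 6.62, 6.60 and 6.56 on control arrays. The groups were clearly apart, with a difference of -0.29 (SE 0.084, unadjusted p = 0.0084), but the adjusted p was 0.79. OVOL1, an epithelial repressor, had -0.23 (SE 0.083, adjusted p = 0.79). SNAI2, or Slug, was dim at 3.63 on inhibitor and 3.42 on control arrays, a difference of 0.21 (SE 0.11), and OVOL2 had 0.11 (SE 0.12). Over the alternative settings 10 to 13 of the 15 factors were negative where all were tested.

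**Figure D5:**
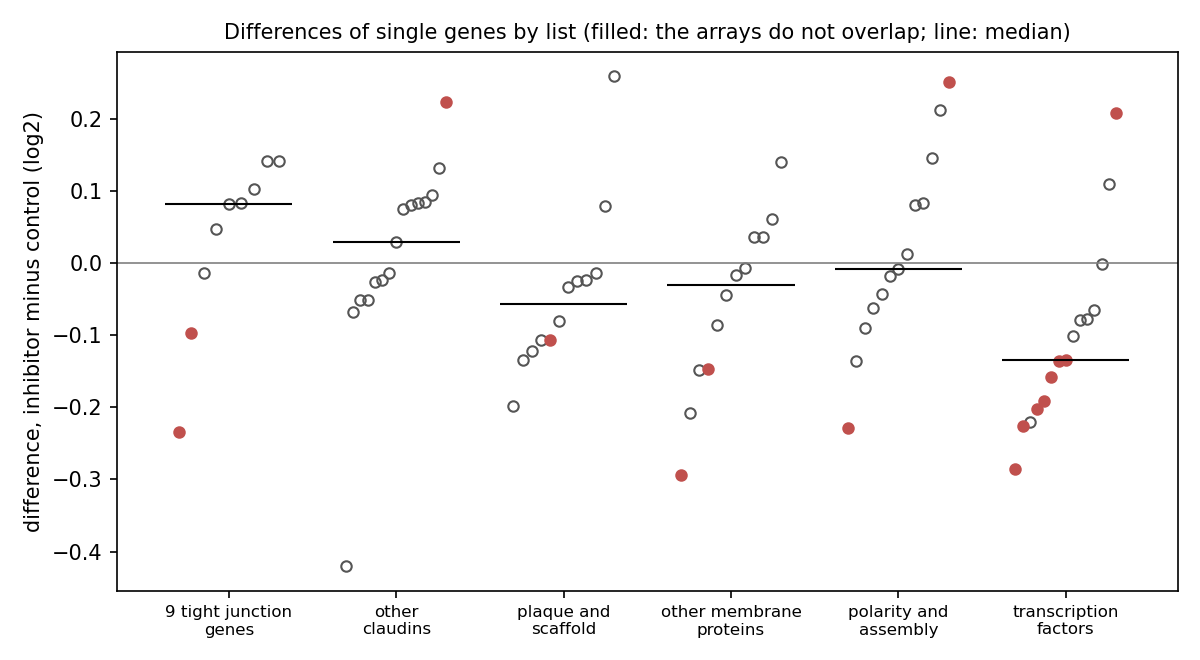
Difference of each gene, inhibitor minus control (log2), for the 9 tight junction genes and 5 further lists, sorted within a list. Filled points are genes whose inhibitor and control arrays do not overlap, and bars are list medians. The medians run from -0.14 for the transcription factors to 0.081 for the 9 tight junction genes.

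Snail binds the E-box letters CAGGTG, which read CACCTG on the other strand, so the start regions of the genes were searched for both spellings. RefSeq windows of 250 bases before to 50 after a transcript start (GRCh38.p14) were given for 8 of the 9 genes, 14 windows in all, and F11R had none. An E-box stood in 6 of the 14 windows (42.9%), against 20.6% of 35116 windows of the same length over all genes. The 14 windows are few and not independent, since TJP1 gave 4 of them and the 2 of OCLN overlap, and the shares were not tested. CLDN7 is shown because its second window held the most, 5 in all. Both windows of CLDN18 are shown because this gene starts at 2 places and was the dimmest here, and they held 1 and 0. The E-boxes are in capitals, 5′ to 3′. A match of letters does not show that Snail binds there.
CLDN7, chr17:7262429-7262728, minus strand: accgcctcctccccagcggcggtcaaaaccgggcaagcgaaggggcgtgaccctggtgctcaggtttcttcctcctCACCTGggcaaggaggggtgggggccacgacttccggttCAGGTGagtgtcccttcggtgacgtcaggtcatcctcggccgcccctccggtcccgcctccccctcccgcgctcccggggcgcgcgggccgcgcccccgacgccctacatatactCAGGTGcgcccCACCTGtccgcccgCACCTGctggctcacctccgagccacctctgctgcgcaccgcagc
CLDN18 upstream start, chr3:137998566-137998865, plus strand: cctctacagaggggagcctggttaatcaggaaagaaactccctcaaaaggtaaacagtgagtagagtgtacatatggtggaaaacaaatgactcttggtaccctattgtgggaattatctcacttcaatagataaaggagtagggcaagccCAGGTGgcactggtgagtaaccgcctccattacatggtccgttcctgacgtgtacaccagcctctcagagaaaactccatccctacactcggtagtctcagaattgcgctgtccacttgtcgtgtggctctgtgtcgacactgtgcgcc
CLDN18 downstream start, chr3:138009915-138010214, plus strand: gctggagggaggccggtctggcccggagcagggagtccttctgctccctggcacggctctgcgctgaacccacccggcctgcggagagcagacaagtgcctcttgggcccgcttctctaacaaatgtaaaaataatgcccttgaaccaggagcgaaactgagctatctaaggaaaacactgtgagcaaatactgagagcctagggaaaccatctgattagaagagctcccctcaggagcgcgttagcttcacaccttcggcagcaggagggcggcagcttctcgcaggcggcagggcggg

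Of the genes with an E-box in a window, CLDN3, CLDN7, OCLN and TJP1 had positive differences and CLDN18 a negative one. Of those without, CLDN1 and CLDN4 had positive differences and CLDN12 a negative one. None of these differences passed the threshold, and 50.5% of all genes had a positive difference. Under some alternative settings the sign turned for CLDN3, which has an E-box, and for CLDN1 and CLDN12, which have none. Whether E-boxes relate to the differences was not tested. The windows of the tight junction genes were also richer in G and C, with a median of 64.8% against 58.7% over all windows.

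The mean of the 9 genes lay between 8.12 and 8.20 on inhibitor arrays and between 8.05 and 8.22 on control arrays, so the controls spanned the inhibitor arrays. The genes whose values ran most like this mean over the 6 arrays were MUL1 (Pearson's r = 0.994), ATP5F1C (0.986) and COX5B (0.986), the last pair encoding subunits of mitochondrial ATP synthase and cytochrome c oxidase. With only 6 arrays, 79 genes had r above 0.95. The mean they were compared with was lowest on control replicate 1, at 8.05.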

How the data were processed

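The authors deposited log2 expression values for 257430 probe sets of the Affymetrix Human Gene 1.0 ST array, 1 column per array. Tools listed in the submitters' processing notes are the Affymetrix Expression Console, RMA and the Transcriptome Analysis Console. Their versions and settings are not given in the sources used here. RMA gives arrays nearly the same distribution (column medians 6.02 to 6.07), which hides any shift common to most genes. Per the labels, 500 ng of total RNA was labelled. Precision is limited by the number of arrays.

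GEO's platform annotation gave 1 symbol for 224320 probe sets and several for 10159, and 22951 were unnamed here. Symbols were updated through RefSeq, and BVES was read as POPDC1 after a first run had missed it. Probe sets shared with GTPBP10 (1, CLDN12) and TSTD1 (1, F11R) were left out. Some genes of the lists are not reported here.

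Inhibitor and control arrays were compared in limma 3.58.1 (R 4.3.3; lmFit, eBayes) without a filter, with Benjamini-Hochberg adjustment over all genes or all probe sets. On simulated data the gene fit found most log2 changes of 1 or 2 but few of 0.5 and almost none of 0.3, so it had little power at the size of the differences seen in the 9 genes. diffSplice failed a first simulation with a separate variance for each probe set, where most of its calls were false. A second simulation with 1 variance per gene, added after that failure, was passed. A test with a variance for each probe set was then tried, and it recovered none of the known differences put into test data. Neither test of unequal probe sets is relied on. Alternatives covered a replicate block, left-out arrays, 2 normalizations, dim genes or probe sets, probe set summaries and variance estimates. The 9 genes and the lists were chosen with earlier results of these data known. Named were the 9 genes, up to 2 genes per list and direction with the smallest p, the claudins above the olfactory receptor level and the 3 genes most like the mean. CD14, EPCAM and other markers were named after their values were seen.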

Additional observations from a re-analysis of the deposited data

How the results depend on the processing

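The tight junction genes and the further lists had 0 genes past the threshold in limma under each of 17 alternatives, and the probe sets of the 9 genes under each of 10. Signs of single genes turned for CLDN1 without control replicate 1 (-0.068), with the brightest probe set (-0.087) and with array weights (-0.0028), for CLDN3 with the brightest probe set (-0.033), and for CLDN12 without inhibitor replicate 3 (0.022), without control replicate 2 (0.12) and with the median probe set (0.073). Leaving out 1 array moved CLDN1 between -0.068 and 0.13 and CLDN12 between -0.12 and 0.12. It moved OCLN between 0.018 and 0.23, TJP1 between 0.046 and 0.22 and CLDN7 between 0.060 and 0.16. CLDN3 moved between 0.032 and 0.11, CLDN4 between 0.027 and 0.12, CLDN18 between -0.30 and -0.13 and F11R between -0.13 and -0.068. CLDN18 was at 0 with its brightest probe set and was absent when the dimmest 30% or 50% of genes were dropped. Over all genes limma called 0, except 1 (RGPD4) without control replicate 3, in a range of 0 to 1 when 1 array was left out. Unequal probe set changes were called for 95 to 409 genes when 1 array was left out, 409 without inhibitor replicate 1, 95 without inhibitor replicate 2 and 127 without inhibitor replicate 3, against 232 with all arrays, and for 0 of the 9 genes under each of these. A test with a variance for each probe set, chosen after seeing the data and the failed simulation, called 0 of 17611 genes, with 917 at an unadjusted p under 0.05, and had no power in simulation. The replicate block gave 0 calls among all genes and among the 9 and changed no call. With the block, 4 of the 103 probe sets of the 9 genes had an unadjusted p under 0.05 in limma. Without it 2 had, beside 6.21% of all probe sets. The share of all probe sets with the block was not counted, so the 4 are only a description. Deviations of same-numbered arrays correlated by -0.032, -0.040 and 0.17, which does not make same-numbered arrays pairs. The causes were not tested.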
